A study of Mus musculus with 18 samples.

Results

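The genes of glycolysis and of the response to low oxygen were followed in mouse peritoneal macrophages, as a set of 35 genes taken by symbol from the 23511 genes of the count table. All 35 were in the table and all 35 passed the filter on low counts, which kept 16609 genes. The set holds the hexokinases, the further enzymes of glycolysis and 2 regulators of phosphofructokinase, 2 enzymes that decide the fate of pyruvate, 2 subunits of the hypoxia-inducible factors (HIF), 2 prolyl hydroxylases that mark those subunits, and 13 other genes known to be induced by low oxygen. Its members were chosen by function, not by measured values of these libraries, but with earlier results of the same data known.

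Bulk RNA sequencing measured peritoneal macrophages in 2 sorted populations, Tim-4low and Tim-4high, where Tim-4, encoded by Timd4, is a receptor of resident macrophages for phosphatidylserine on dying cells. Cells came from mice with MC38-LG tumors given anti-Tim-4, from mice with MC38-LG tumors given an isotype antibody, and from mice without a tumor listed as untreated, so that 6 groups of 3 libraries resulted. MC38 is a mouse colon carcinoma line, here placed in the peritoneal cavity. Anti-Tim-4 was given on day 7 after the tumor cells and macrophages were taken on day 10, and mice without a tumor were taken on the same day. Neither the day of the isotype antibody nor the strain, genotype, sex or age of the mice is given in the sources used here. Because mice without a tumor received no antibody, a difference from them holds the tumor and the injected antibody together, and these cannot be told apart.

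Glycolysis breaks glucose down to pyruvate, and macrophages are known to rely on it when activated. HIF is a transcription factor whose alpha subunits, among them those encoded by Hif1a and Epas1, are marked for destruction by prolyl hydroxylases while oxygen is present. When oxygen is short the subunits last, pair with ARNT and bind DNA at sites with a short core sequence, and most glycolytic genes are known HIF targets. In macrophages Hif1a is also known to respond to inflammatory signals and lactate.

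Library totals lay between 24530070 and 34110392 estimated counts. Levels below are counts scaled to TMM library sizes (CPM), one value per library in the order of library number, and folds are log2 values ± standard error from edgeR's quasi-likelihood test with Benjamini-Hochberg adjustment over the 16609 genes, called at an adjusted p under 0.05. The sort gene Timd4 had 29.0, 23.1 and 11.9 CPM with anti-Tim-4, 14.5, 10.99 and 75.4 CPM with isotype and 109, 9.52 and 9.13 CPM without a tumor among Tim-4low libraries. Among Tim-4high libraries it had 219, 173 and 169 CPM with anti-Tim-4, 319.5, 294 and 280.4 CPM with isotype and 886, 680.3 and 622 CPM without a tumor. Tim-4low library 3 with isotype and Tim-4low library 1 without a tumor therefore stood above their groups in the sort gene. Both isotype libraries numbered 3 also held more T and NK cell transcripts, 104 and 90.8 CPM summed over 9 genes against at most 20.7 CPM in the other libraries, and both no-tumor libraries numbered 1 held the most B cell transcripts, 1764 CPM for the Tim-4low and 577 CPM for the Tim-4high library.

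With the tumor, nearly the whole set was higher. In Tim-4low cells 31 of 35 genes rose in isotype tumor mice over mice without a tumor and no gene fell, and in Tim-4high cells 30 of 35 rose and no gene fell. Over all tested genes 49.8% were called in Tim-4low cells, with 25.2% rising and 24.6% falling. In Tim-4high cells 51.5% were called, with 27.3% rising and 24.1% falling. The median fold of the set was 1.53 in Tim-4low and 1.39 in Tim-4high cells, where the median of all tested genes was -0.02 and -0.01. The 2 populations share no library, and 30 of the genes rose in both. The share of all tested genes that rose in both was not counted. Libraries of equal number in a condition were correlated, as described under processing, so the populations are not independent repeats. At an unadjusted p under 0.05, 1 gene fell in each population, and DESeq2 called 31 rising and 1 falling in Tim-4low and 30 rising and 0 falling in Tim-4high cells. Tumor and no-tumor libraries did not overlap for 32 genes in Tim-4low and 31 in Tim-4high cells, as they did for 58% and 57.5% of all tested genes.

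**Figure D1:**
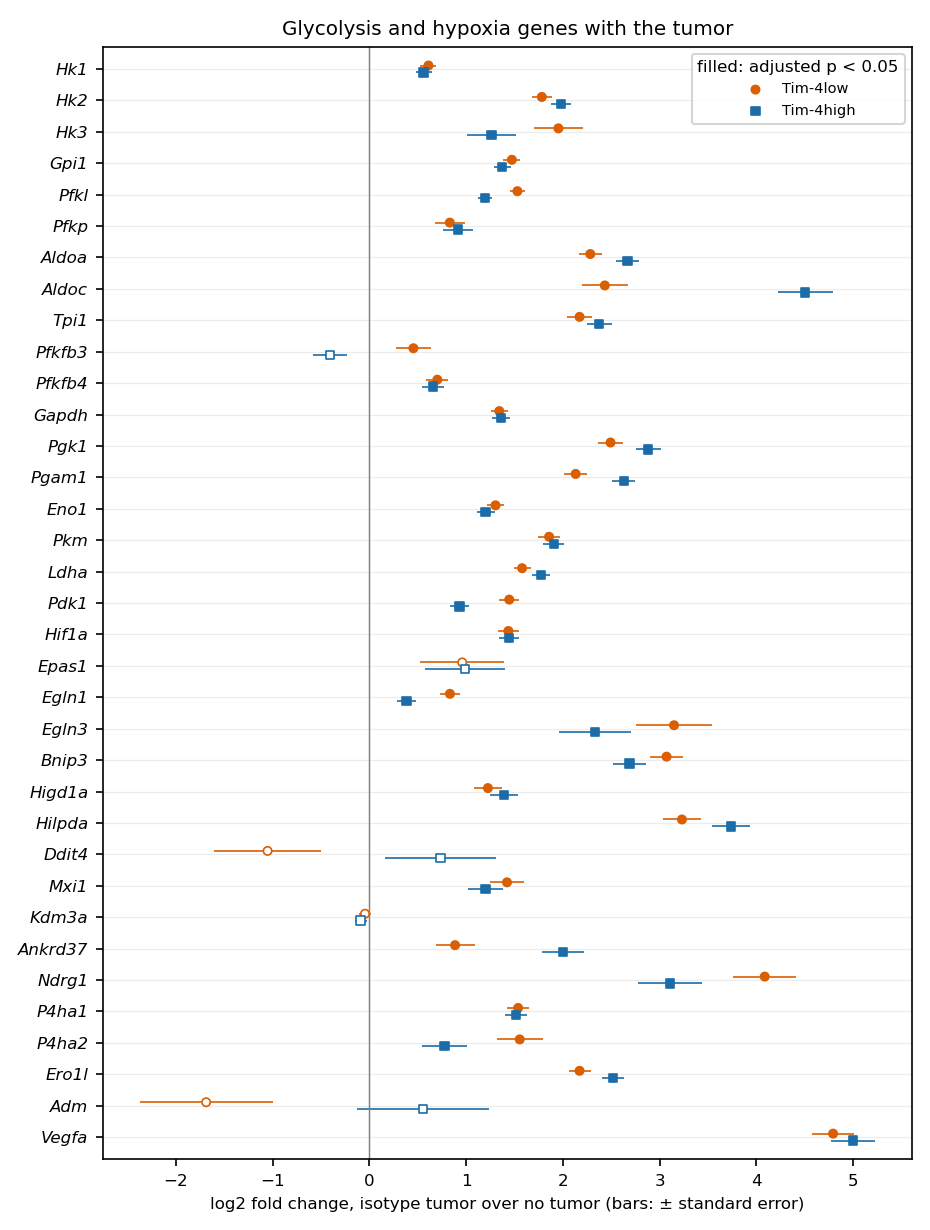
Each point is the log2 fold change of 1 gene, isotype tumor over no tumor, in Tim-4low (circles) and Tim-4high (squares) cells, with bars of ± 1 standard error and filled symbols at an adjusted p under 0.05. Most of the 35 genes lie right of 0 in both populations, led by Vegfa at 4.79 and 5.0, while Kdm3a lies at -0.05 and -0.09.

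All 16 genes for glycolytic enzymes, lactate dehydrogenase and pyruvate dehydrogenase kinase rose with the tumor in both populations, by 0.61 to 2.49 in Tim-4low and by 0.56 to 4.50 in Tim-4high cells, with medians of 1.68 and 1.57. The hexokinases, which trap glucose in the cell as its phosphate, moved unequally. Hk2, the hexokinase known to be induced by HIF, was held in Tim-4low cells at 265, 273 and 272 CPM with anti-Tim-4, 245, 252 and 223 CPM with isotype and 70.5, 64.8 and 74.1 CPM without a tumor. Tim-4high cells held Hk2 at 299.6, 297 and 304 CPM with anti-Tim-4, 256, 272 and 226 CPM with isotype and 57.4, 75.5 and 58.2 CPM without a tumor. Every tumor library was above every no-tumor library, with a fold of 1.78 ± 0.10 in Tim-4low (adjusted p 6.01e-09) and 1.98 ± 0.10 in Tim-4high cells (adjusted p 1.59e-09).

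Hk1, the widely expressed hexokinase, differed far less. Tim-4low cells carried Hk1 at 244, 263 and 238 CPM with anti-Tim-4, 245, 236 and 236 CPM with isotype and 153, 172 and 146 CPM without a tumor. Tim-4high cells carried Hk1 at 242, 249 and 243 CPM with anti-Tim-4, 295, 285 and 285 CPM with isotype and 187, 224 and 176 CPM without a tumor, and the fold was 0.61 ± 0.08 in Tim-4low and 0.56 ± 0.08 in Tim-4high cells. Hk3, the hexokinase of myeloid cells, was spread more widely among libraries. In Tim-4low libraries Hk3 had 324, 399 and 406 CPM with anti-Tim-4, 433, 482 and 419 CPM with isotype and 84.2, 162 and 98.3 CPM without a tumor. In Tim-4high libraries Hk3 had 310.2, 355 and 350.4 CPM with anti-Tim-4, 252, 290.2 and 253 CPM with isotype and 87.3, 166 and 78.4 CPM without a tumor. Library 2 was the highest of the 3 no-tumor libraries in both populations, and still below every tumor library, with folds of 1.95 ± 0.26 and 1.26 ± 0.25 in Tim-4low and Tim-4high cells.

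In upper glycolysis, aldolase A (Aldoa) splits the 6-carbon sugar, and it was the most abundant member per transcript length in every tumor group. Scaled to transcript length, Aldoa averaged 2764 TPM in Tim-4low and 3577 TPM in Tim-4high cells with isotype, followed by Pkm, Ldha and Eno1 in both, and 622 and 644 TPM without a tumor. Tim-4low cells had Aldoa at 2035, 2394 and 1935 CPM with anti-Tim-4, 1907, 2119 and 2223 CPM with isotype and 443, 429 and 412 CPM without a tumor. Tim-4high cells had Aldoa at 2346, 2478 and 2248 CPM with anti-Tim-4, 2803, 2837 and 3039 CPM with isotype and 444, 542 and 382 CPM without a tumor. The fold was 2.28 ± 0.12 in Tim-4low and 2.67 ± 0.12 in Tim-4high cells, with no overlap in either.

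Aldolase C (Aldoc), known chiefly from brain, was a scarce gene with the largest tumor fold of these 16 genes in Tim-4high cells and the second, after Pgk1, in Tim-4low cells. Aldoc stood in Tim-4low cells at 28.8, 37.5 and 26.2 CPM with anti-Tim-4, 28.6, 33.2 and 34.3 CPM with isotype and 6.56, 5.23 and 6.01 CPM without a tumor. Aldoc stood in Tim-4high cells at 26.8, 26.8 and 23.3 CPM with anti-Tim-4, 32.7, 32.0 and 38.2 CPM with isotype and 1.34, 2.57 and 0.641 CPM without a tumor. Isotype levels overlapped between the populations, while no-tumor Tim-4high libraries were the lowest of all 18. The fold was 2.43 ± 0.24 in Tim-4low cells (adjusted p 1.19e-06) and 4.50 ± 0.28 in Tim-4high cells (adjusted p 1.25e-08), and this difference between the populations was itself called, at -2.07 ± 0.36 (adjusted p 0.00519). Of the other upper enzymes, Tpi1, which interconverts the 2 triose phosphates, rose by 2.17 ± 0.13 and 2.38 ± 0.13, Gpi1 by 1.47 ± 0.09 and 1.37 ± 0.09, and the phosphofructokinase genes Pfkl by 1.53 ± 0.07 and 1.19 ± 0.07 and Pfkp by 0.83 ± 0.15 and 0.92 ± 0.15, in Tim-4low and Tim-4high cells in that order.

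Lower glycolysis carries the steps that return ATP. Phosphoglycerate kinase 1 (Pgk1, X:106187100-106203699) was the leading enzyme there. Tim-4low cells held Pgk1 at 281, 384 and 343 CPM with anti-Tim-4, 346, 409.9 and 397 CPM with isotype and 63.6, 71.3 and 70.2 CPM without a tumor. Tim-4high cells held Pgk1 at 298, 357 and 352 CPM with anti-Tim-4, 264, 291 and 286 CPM with isotype and 36.6, 43.6 and 33.8 CPM without a tumor. The folds of 2.49 ± 0.12 in Tim-4low and 2.88 ± 0.13 in Tim-4high cells came with no overlap, and within no-tumor mice every Tim-4low library was above every Tim-4high one. Phosphoglycerate mutase 1 (Pgam1) shifts the phosphate before enolase. Tim-4low libraries gave Pgam1 627, 801 and 643 CPM with anti-Tim-4, 669, 715 and 698 CPM with isotype and 164, 148 and 163 CPM without a tumor. Tim-4high libraries gave Pgam1 660.3, 753 and 676 CPM with anti-Tim-4, 643, 702 and 685 CPM with isotype and 113, 124 and 90.4 CPM without a tumor. The tumor libraries were all higher, by 2.13 ± 0.12 and 2.63 ± 0.12 in Tim-4low and Tim-4high cells, although Pgam1 is one of the less certain levels here, since its pseudogenes in the table held counts equal to 41.9% of its own.

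Pyruvate kinase (Pkm) makes pyruvate, and lactate dehydrogenase A (Ldha) turns it into lactate. In Tim-4low cells Pkm lay at 2224, 2694 and 2613 CPM with anti-Tim-4, 2601, 2979 and 2676 CPM with isotype and 712, 787 and 780.3 CPM without a tumor. In Tim-4high cells Pkm lay at 2335, 2566 and 2527 CPM with anti-Tim-4, 2267, 2388 and 2396 CPM with isotype and 636, 720.4 and 527 CPM without a tumor. Pkm rose by 1.86 ± 0.11 and 1.90 ± 0.11 in Tim-4low and Tim-4high cells. Ldha came to 1271, 1515 and 1403 CPM with anti-Tim-4, 1366, 1590.2 and 1492 CPM with isotype and 488, 488 and 513 CPM without a tumor in Tim-4low cells. For Tim-4high cells Ldha came to 1453, 1633 and 1532 CPM with anti-Tim-4, 1447, 1598 and 1592 CPM with isotype and 470.2, 474 and 413 CPM without a tumor. Tumor libraries of Ldha lay well above all no-tumor libraries and close to each other, with folds of 1.58 ± 0.09 and 1.77 ± 0.09. Pdk1, a kinase that switches off pyruvate dehydrogenase, rose by 1.45 ± 0.10 and 0.93 ± 0.10. Gapdh rose by 1.34 ± 0.09 and 1.36 ± 0.09 and Eno1 by 1.30 ± 0.09 and 1.20 ± 0.09. However, transcripts annotated as protein-coding held only 2.84% to 25.8% of the Gapdh counts of a library.

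The regulators of phosphofructokinase, bifunctional enzymes that set the level of its activator, had small folds. Tim-4low libraries put Pfkfb3 at 88.6, 109.6 and 132 CPM with anti-Tim-4, 102, 115 and 98.4 CPM with isotype and 64.0, 85.1 and 81.0 CPM without a tumor. Tim-4high libraries put Pfkfb3 at 95.6, 114 and 118 CPM with anti-Tim-4, 55.5, 68.6 and 60.3 CPM with isotype and 57.3, 93.7 and 93.6 CPM without a tumor. Pfkfb3 overlapped between tumor and no-tumor Tim-4high cells (-0.41 ± 0.18, adjusted p 0.0701), and its rise of 0.45 ± 0.18 in Tim-4low cells (adjusted p 0.0458) was lost on leaving out any library of isotype Tim-4low cells or no-tumor library 1 or 3, with adjusted p up to 0.162. Pfkfb4 measured 38.6, 47.2 and 52.1 CPM with anti-Tim-4, 55.8, 64.1 and 56.5 CPM with isotype and 38.2, 34.2 and 36.1 CPM without a tumor in Tim-4low cells. Among Tim-4high cells Pfkfb4 measured 36.8, 40.4 and 48.2 CPM with anti-Tim-4, 23.9, 28.7 and 27.8 CPM with isotype and 16.4, 17.2 and 17.5 CPM without a tumor. Over all its transcripts it rose by 0.70 ± 0.11 in Tim-4low and 0.65 ± 0.12 in Tim-4high cells, while its protein-coding transcripts averaged 23.7 CPM with isotype and 22.4 CPM without a tumor in Tim-4low cells, and 13.5 and 11.05 CPM in Tim-4high cells.

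**Figure D2:**
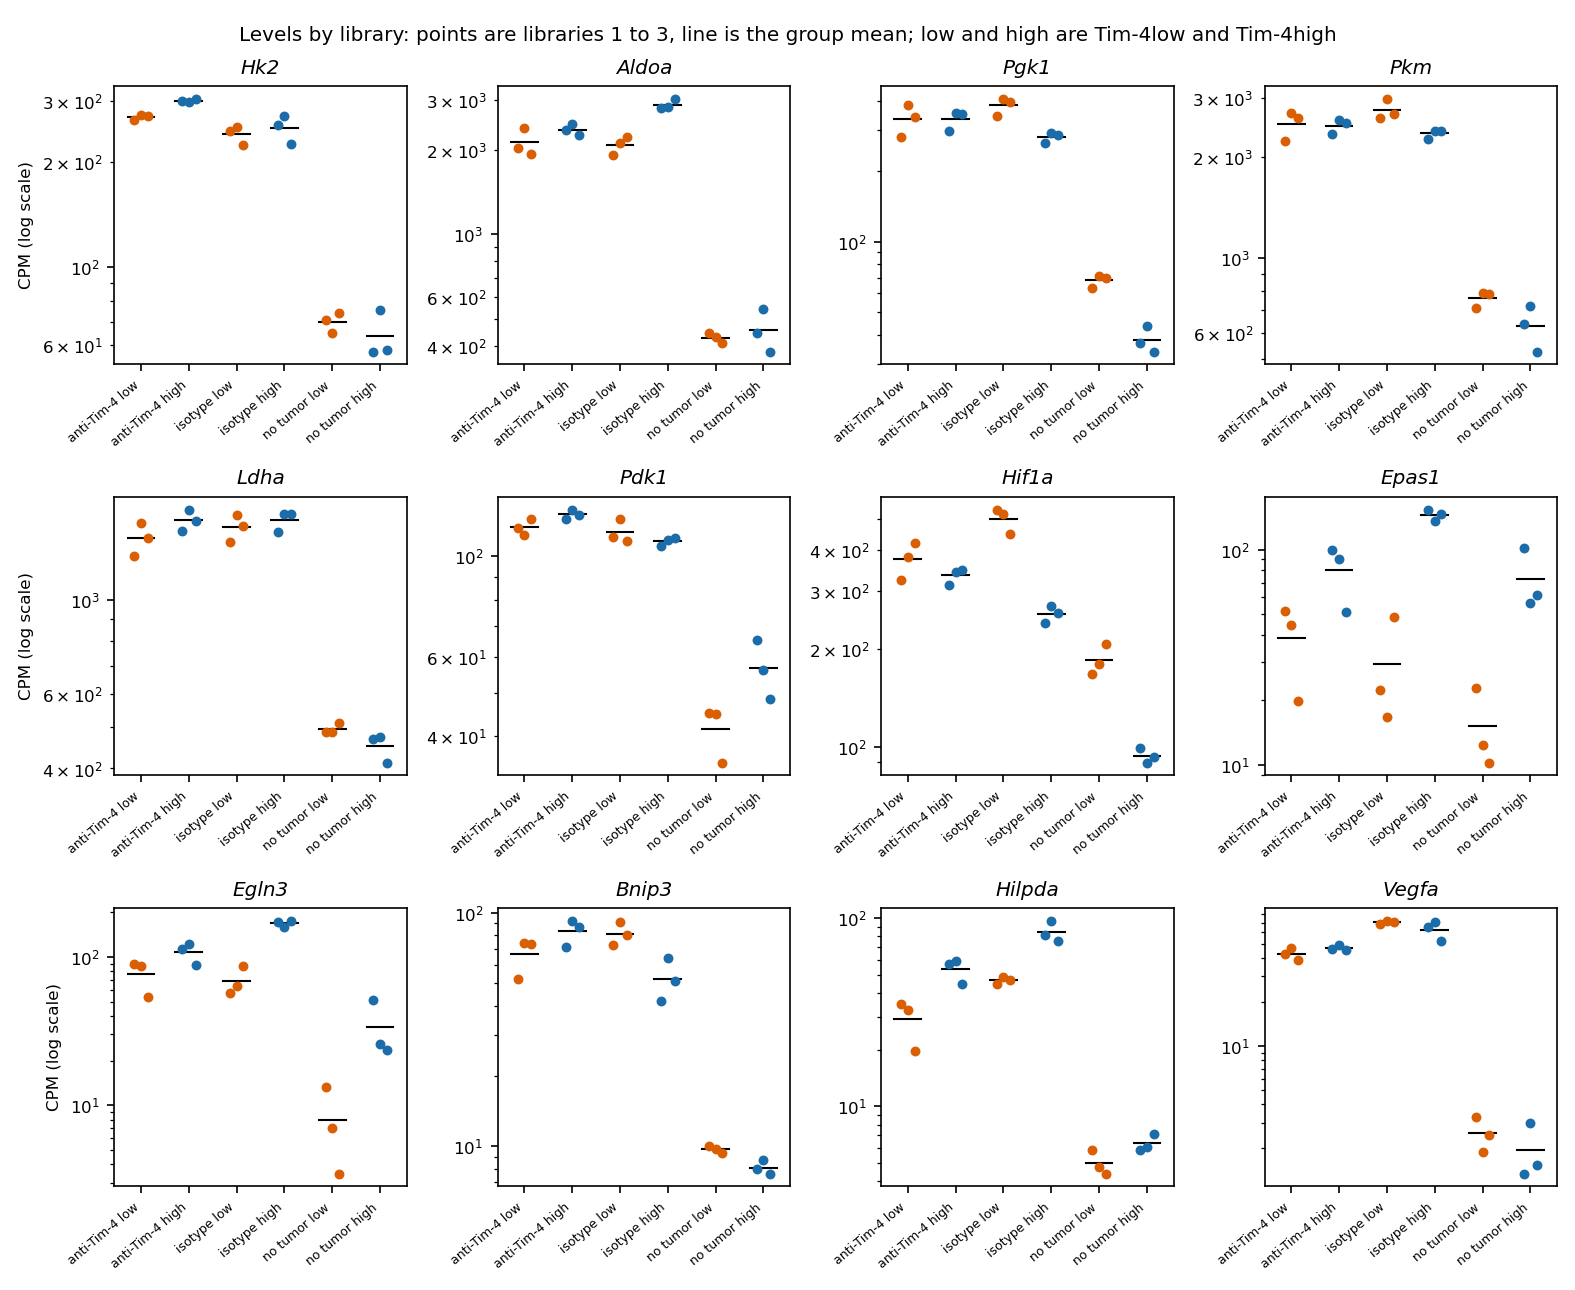
Levels of 12 genes in CPM on log axes, 1 point per library and a line at the mean of each of the 6 groups, with anti-Tim-4, isotype and no-tumor groups from left to right and Tim-4low (orange) left of Tim-4high (blue). No-tumor libraries lie below the tumor libraries for 11 of the 12 genes. Epas1 separates by population with isotype and without a tumor, but not with anti-Tim-4. Its isotype and no-tumor libraries overlap in Tim-4low cells.

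The HIF subunits differed from each other. Hif1a, the subunit of the acute response, had 324, 382 and 423 CPM with anti-Tim-4, 533, 516 and 448 CPM with isotype and 167, 179 and 206 CPM without a tumor in Tim-4low cells. Across Tim-4high cells Hif1a had 314, 343 and 349 CPM with anti-Tim-4, 240.3, 271 and 257 CPM with isotype and 99.8, 89.8 and 93.3 CPM without a tumor. The tumor was accompanied by a rise of 1.44 ± 0.11 in Tim-4low and 1.44 ± 0.11 in Tim-4high cells, and at every condition without anti-Tim-4 each Tim-4low library exceeded each Tim-4high one. Epas1, which encodes the related HIF-2 alpha, followed the sort with isotype and without a tumor, while its populations overlapped with anti-Tim-4. Tim-4low cells had Epas1 at 52.1, 44.5 and 19.8 CPM with anti-Tim-4, 22.3, 16.6 and 48.8 CPM with isotype and 22.8, 12.3 and 10.2 CPM without a tumor. Tim-4high cells had Epas1 at 99.5, 90.2 and 51.1 CPM with anti-Tim-4, 153, 135 and 147 CPM with isotype and 101.4, 56.5 and 61.8 CPM without a tumor. Its tumor folds of 0.96 ± 0.43 (adjusted p 0.0773) and 0.99 ± 0.42 (adjusted p 0.0588) missed the threshold in Tim-4low and Tim-4high cells. Without both no-tumor libraries 1 these folds were called, at 1.39 (adjusted p 0.0209) and 1.29 (adjusted p 0.0226). The 2 Tim-4low libraries with the highest Timd4 of their groups, isotype library 3 and no-tumor library 1, were also the highest for Epas1, and the part of Timd4-rich cells in the Epas1 level was not tested. In bulk samples, fewer cells of a type and less RNA per cell cannot be told apart.

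Of the prolyl hydroxylases, Egln3 is the one known to be strongly induced by HIF, and Egln1 is the main oxygen sensor. Tim-4low libraries showed Egln3 at 89.9, 87.0 and 54.0 CPM with anti-Tim-4, 57.0, 64.2 and 86.6 CPM with isotype and 13.2, 6.98 and 3.45 CPM without a tumor. Tim-4high libraries showed Egln3 at 113, 122.6 and 88.9 CPM with anti-Tim-4, 172, 159.7 and 176 CPM with isotype and 51.4, 25.9 and 23.5 CPM without a tumor. Egln3 rose by 3.15 ± 0.40 in Tim-4low and 2.33 ± 0.37 in Tim-4high cells, and as with Epas1, isotype library 3 and no-tumor library 1 were the highest of their Tim-4low groups. Egln1 amounted to 87.3, 106 and 112 CPM with anti-Tim-4, 113, 126 and 109.9 CPM with isotype and 69.2, 61.0 and 66.0 CPM without a tumor in Tim-4low cells. Over Tim-4high cells Egln1 amounted to 98.8, 107 and 113 CPM with anti-Tim-4, 76.1, 87.1 and 84.5 CPM with isotype and 69.2, 57.2 and 63.4 CPM without a tumor. Egln1 rose by 0.83 ± 0.10 and 0.38 ± 0.10, much less than Egln3.

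Bnip3, which directs mitochondria to autophagy, and Hilpda, which blocks the breakdown of stored lipid, were among the strongest responders. Tim-4low cells contained Bnip3 at 52.1, 73.9 and 73.3 CPM with anti-Tim-4, 72.8, 91.0 and 80.5 CPM with isotype and 10.0, 9.71 and 9.32 CPM without a tumor. Tim-4high cells contained Bnip3 at 71.0, 92.5 and 86.8 CPM with anti-Tim-4, 41.9, 63.7 and 50.9 CPM with isotype and 7.99, 8.69 and 7.62 CPM without a tumor. Bnip3 rose by 3.07 ± 0.17 and 2.69 ± 0.17, with all tumor libraries several times above all no-tumor ones. Tim-4low cells contained Hilpda at 35.1, 32.5 and 19.6 CPM with anti-Tim-4, 44.5, 48.6 and 46.9 CPM with isotype and 5.83, 4.76 and 4.38 CPM without a tumor. Tim-4high cells contained Hilpda at 56.9, 59.0 and 44.6 CPM with anti-Tim-4, 81.3, 97.0 and 75.8 CPM with isotype and 5.87, 6.08 and 7.13 CPM without a tumor. Hilpda rose by 3.23 ± 0.20 in Tim-4low and 3.73 ± 0.20 in Tim-4high cells, and the isotype Tim-4high libraries were the highest of all. Higd1a, a small mitochondrial protein, rose by 1.22 ± 0.14 and 1.39 ± 0.14.

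Vegfa, the secreted growth factor for blood vessels, had the largest tumor fold of the 35 genes in each population. Tim-4low libraries contained Vegfa at 42.3, 47.0 and 39.0 CPM with anti-Tim-4, 68.3, 72.1 and 70.6 CPM with isotype and 3.28, 1.88 and 2.48 CPM without a tumor. Tim-4high libraries contained Vegfa at 46.1, 49.3 and 45.1 CPM with anti-Tim-4, 65.6, 70.1 and 52.2 CPM with isotype and 1.34, 3.00 and 1.55 CPM without a tumor. Every tumor library held over 10 times the level of every no-tumor library, with folds of 4.79 ± 0.22 in Tim-4low (adjusted p 9.23e-10) and 5.0 ± 0.23 in Tim-4high cells (adjusted p 8.41e-10). The other secreted factor, adrenomedullin (Adm), was scarce, at 0.312 to 3.63 CPM over all 18 libraries, with folds of -1.69 ± 0.69 (adjusted p 0.0523) in Tim-4low and 0.55 ± 0.68 (adjusted p 0.521) in Tim-4high cells.

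Among the genes of signalling, stress and transcription, Ndrg1, a stress-response protein, had the second-largest fold of Tim-4low cells. Tim-4low cells yielded Ndrg1 at 31.4, 44.9 and 51.3 CPM with anti-Tim-4, 50.4, 70.0 and 60.5 CPM with isotype and 5.999, 2.88 and 1.93 CPM without a tumor. Tim-4high cells yielded Ndrg1 at 30.2, 42.0 and 40.6 CPM with anti-Tim-4, 17.7, 25.7 and 21.1 CPM with isotype and 3.06, 1.97 and 2.42 CPM without a tumor. It rose by 4.09 ± 0.32 in Tim-4low and 3.11 ± 0.33 in Tim-4high cells. Ankrd37, a small ankyrin repeat protein, reached 15.4, 20.7 and 16.9 CPM with anti-Tim-4, 13.3, 14.2 and 13.3 CPM with isotype and 8.86, 6.48 and 6.81 CPM without a tumor in Tim-4low cells. With Tim-4high cells Ankrd37 reached 13.5, 18.8 and 16.4 CPM with anti-Tim-4, 14.5, 11.3 and 11.3 CPM with isotype and 3.77, 3.59 and 1.92 CPM without a tumor. Its folds were 0.88 ± 0.20 and 2.00 ± 0.22, but Ankrd37 overlaps Ufsp2 on the other strand, whose counts equalled 359% of its own, and whether strand was used in counting is not given in the sources used here.

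Ddit4, an inhibitor of mTORC1, was not called with the tumor in the fit of all 18 libraries. Tim-4low libraries held Ddit4 at 3.67, 5.95 and 3.37 CPM with anti-Tim-4, 2.79, 3.94 and 8.57 CPM with isotype and 10.9, 11.3 and 9.51 CPM without a tumor. Tim-4high libraries held Ddit4 at 2.10, 3.19 and 2.23 CPM with anti-Tim-4, 2.34, 2.17 and 8.47 CPM with isotype and 4.89, 1.90 and 0.981 CPM without a tumor. Its folds missed the threshold (-1.05 ± 0.55, adjusted p 0.124 in Tim-4low and 0.74 ± 0.58, adjusted p 0.303 in Tim-4high cells), and no-tumor Tim-4low libraries were its highest. Ddit4 was called lower in Tim-4low cells without isotype Tim-4low library 3 (-1.65, adjusted p 0.0372) or without both isotype libraries 3 (-1.66, adjusted p 0.0111). It was called higher in Tim-4high cells without no-tumor Tim-4high library 1 (1.59, adjusted p 0.0437). Kdm3a, a histone demethylase and known HIF target, was nearly level at 54.1 to 69.4 CPM over all libraries. The enzymes P4ha1 and P4ha2, which hydroxylate collagen, rose by 1.54 ± 0.12 and 1.55 ± 0.24 in Tim-4low and by 1.52 ± 0.12 and 0.77 ± 0.23 in Tim-4high cells, where P4ha2 was lost without no-tumor library 2 (adjusted p 0.0511) or 3 (adjusted p 0.0546). Ero1l, the oxidase of disulfide formation, rose by 2.17 ± 0.11 and 2.52 ± 0.12.

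The same contrast with anti-Tim-4 tumor mice in place of isotype mice shared the no-tumor libraries, so its values are given side by side and not as a second test. It called 33 genes rising and 1 falling in Tim-4low cells, where 46.7% of all tested genes were called, 23.8% rising and 22.9% falling, and 29 rising and 0 falling in Tim-4high cells, where 52.9% were called, 27.4% rising and 25.5% falling, with 0 falling also at an unadjusted p under 0.05 and by DESeq2. Vegfa rose by 4.07 ± 0.21 and 4.58 ± 0.23, Ndrg1 by 3.58 ± 0.32 and 3.92 ± 0.34, Egln3 by 3.30 ± 0.40 and 1.69 ± 0.37, Bnip3 by 2.78 ± 0.16 and 3.36 ± 0.17, and Aldoc by 2.38 ± 0.24 and 4.08 ± 0.28 in Tim-4low and Tim-4high cells. The gene that fell was Adm in Tim-4low cells (-1.74 ± 0.69, adjusted p 0.0489), and without no-tumor library 1 its fold was -0.38 (adjusted p 0.638). Some rises in Tim-4low cells were unsteady too. Without anti-Tim-4 Tim-4low library 3, Pfkfb3 (adjusted p 0.129), Pfkfb4 (adjusted p 0.103) and Kdm3a (0.16, adjusted p 0.0655) lost the call. Epas1 lost it without library 1 of that group (adjusted p 0.0743), among other omissions.

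Genes of neighbouring pathways outside the set are given by counts, to be read against 25.2% rising and 24.6% falling among all tested genes in Tim-4low and 27.3% and 24.1% in Tim-4high cells, and no list was tested as a whole. Of 7 transporters, 3 rose and 1 fell in Tim-4low and 4 rose and 1 fell in Tim-4high cells, led by the glucose carrier Slc2a1 (2.86 and 3.19) and the lactate exporter Slc16a3 (2.53 and 3.02). Of 17 tested further glycolysis genes 8 rose and 1 fell in Tim-4low and 7 rose and 3 fell in Tim-4high cells, with Pgm1, which links glycogen to glycolysis, at 2.29 in Tim-4high cells. Glycogen synthase Gys1 rose by 2.56 and 2.28 within a list of 12 genes of glycogen and gluconeogenesis, of which 4 rose and 1 fell in Tim-4low and 6 rose in Tim-4high cells. In the tricarboxylic acid cycle, 13 of 20 genes rose and 1 fell in Tim-4low and 16 rose in Tim-4high cells. In the pentose phosphate pathway 7 of 8 rose in Tim-4low and 6 of 8 in Tim-4high cells. Of 12 genes of the pyruvate dehydrogenase complex and its control, 5 rose and 3 fell in Tim-4low and 7 rose and 2 fell in Tim-4high cells. Of 49 other hypoxia-induced genes 23 rose and 12 fell in Tim-4low and 18 rose and 12 fell in Tim-4high cells, so this list was mixed, with Mif at 2.75 and 2.54. Partners and regulators of HIF were mixed as well, with 5 of 16 rising and 7 falling in Tim-4low and 5 rising and 8 falling in Tim-4high cells. List medians lay between -0.16 and 0.68 in Tim-4low and between -0.27 and 0.90 in Tim-4high cells, and all were below those of the 35 genes.

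Markers of other cells moved with the tumor too. Monocyte markers summed over 7 genes to 3216 to 11716 with anti-Tim-4, 3908 to 5167 with isotype and 1484 to 1854 CPM without a tumor among Tim-4low libraries, and among Tim-4high libraries to 3809.6 to 11934, 7726 to 7908 and 109 to 189 CPM. The sum was carried by Chil3, at 1944 to 3378 CPM with isotype against 10.8 to 55.0 CPM without a tumor in Tim-4low cells. Without Chil3 the other 6 genes summed there to 1789 to 1964 CPM with isotype against 1429 to 1843 CPM without a tumor, which overlap, and Ccr2 had 811 to 959.7 CPM against 1196 to 1766 CPM. In Tim-4high cells the 6 genes summed to 456 to 663 CPM with isotype against 99.8 to 178 CPM without a tumor. Fibroblast markers, summed over 5 genes, were 19.7 to 69.0 CPM with isotype in the Tim-4low population, 8.44 to 41.3 CPM in its Tim-4high counterpart, and below 1 CPM in every no-tumor library. Epithelial markers, of which 9 of 10 were in the table, came to 18.8 to 26.7 CPM with isotype against 7.86 to 15.6 CPM without a tumor among Tim-4low libraries, and to 10.6 to 18.1 against 9.28 to 10.9 CPM among Tim-4high ones. Most of that difference was Cdh1, at 14.6 to 22.5 CPM with isotype against 0.055 to 0.488 CPM without a tumor in Tim-4low cells, whereas Krt7 had 1.14 to 1.503 against 4.55 to 6.11 CPM there, and of the 7 tested epithelial markers 2 rose and 2 fell in Tim-4low and 2 rose and 1 fell in Tim-4high cells. The part of these cells in the tumor folds was not tested.

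Promoters were read from RefSeq on GRCm38.p6 as windows from 250 bases before to 50 bases after each start. Of the 35 genes 33 had an entry, with 49 windows, and each was searched on both strands for the core of HIF sites, spelled ACGTG or GCGTG. A core was found in 39 of the 49 windows, 79.6%, against 59.8% of 13558 windows of tested genes and 43.8% of all 32851 windows. The stricter ACGTG stood in 55.1% of the windows of the set, 24.8% of those of tested genes and 19.6% of all. The windows also differed in base composition, with a median GC of 63.3% in the set, 60.0% in tested genes and 52.7% over all windows, and both cores hold G and C, so the part of GC content in these shares was not tested. A palindromic CACGTG holds ACGTG on both strands and counts as 2 matches. A match describes letters only and does not show binding.

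The windows below are of genes with many, few and no matches, in lower case, 5′ to 3′ along the gene, with each match on either strand in capitals. Ldha, with a window at chr7:46845554-46845853 on the plus strand, had 7 matches, the highest number shown here. Bnip3, at chr7:138909457-138909756 on the minus strand, had 5. Pgk1, at chrX:106186850-106187149 on the plus strand, had 2. Vegfa, at chr17:46032328-46032627 on the minus strand, had none, although its fold was the largest, and its second window, not shown, had 2.
Ldha: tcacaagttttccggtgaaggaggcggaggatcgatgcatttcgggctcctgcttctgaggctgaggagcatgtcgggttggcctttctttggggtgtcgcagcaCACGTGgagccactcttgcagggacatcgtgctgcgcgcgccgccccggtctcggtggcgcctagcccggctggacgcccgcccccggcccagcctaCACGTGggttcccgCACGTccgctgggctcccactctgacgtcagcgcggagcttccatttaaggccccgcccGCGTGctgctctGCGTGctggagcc
Bnip3: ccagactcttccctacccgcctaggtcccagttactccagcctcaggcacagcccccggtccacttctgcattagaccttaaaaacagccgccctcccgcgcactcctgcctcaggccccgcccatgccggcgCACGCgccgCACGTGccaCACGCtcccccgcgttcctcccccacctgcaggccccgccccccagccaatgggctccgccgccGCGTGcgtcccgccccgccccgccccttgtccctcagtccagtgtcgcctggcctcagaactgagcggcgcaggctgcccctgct
Pgk1: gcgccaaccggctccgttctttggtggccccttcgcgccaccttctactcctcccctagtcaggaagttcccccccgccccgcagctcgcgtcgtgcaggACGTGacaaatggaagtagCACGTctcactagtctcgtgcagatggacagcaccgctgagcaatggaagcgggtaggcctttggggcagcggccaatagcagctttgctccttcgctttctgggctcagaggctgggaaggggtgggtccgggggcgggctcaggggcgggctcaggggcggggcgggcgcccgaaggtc
Vegfa: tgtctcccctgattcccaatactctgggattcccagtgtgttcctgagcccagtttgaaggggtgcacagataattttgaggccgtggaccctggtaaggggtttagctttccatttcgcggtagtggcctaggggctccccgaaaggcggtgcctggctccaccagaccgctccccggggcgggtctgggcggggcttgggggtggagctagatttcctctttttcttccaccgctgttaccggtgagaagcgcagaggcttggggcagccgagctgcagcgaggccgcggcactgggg

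Mxi1, which encodes an antagonist of MYC, rose by 1.42 ± 0.18 in Tim-4low and 1.20 ± 0.18 in Tim-4high cells, and the deposited transcript counts showed that 1 of its starts carried the change. The upstream transcript of Mxi1 (ENSMUST00000003870) begins at 19:53310518 and encodes 295 residues, and the downstream one (ENSMUST00000111737) begins at 53329413 and encodes 228. The upstream transcript took 60.9, 66.6 and 64.1%, 65.1, 63.0 and 56.4% and 18.6, 20.8 and 20.7% of the Mxi1 counts in anti-Tim-4, isotype and no-tumor Tim-4low libraries. In Tim-4high libraries its share was 48.0, 51.6 and 58.4%, 56.4, 52.1 and 61.9% and 18.4, 11.4 and 19.9% in the same order. No tumor library came near a no-tumor one, and the exact permutation test, two-sided, gave p = 0.1 in both populations, the smallest that 3 against 3 libraries allow. It averaged 33.9 CPM with isotype against 4.09 CPM without a tumor in the Tim-4low population, and 41.7 against 5.46 CPM in the Tim-4high one, whereas the downstream transcript averaged 18.2 against 15.2 CPM and 28.5 against 25.4 CPM. These 2 transcripts were singled out after their values were seen.
Mxi1, window at the upstream start (chr19:53310256-53310555, plus strand, no match): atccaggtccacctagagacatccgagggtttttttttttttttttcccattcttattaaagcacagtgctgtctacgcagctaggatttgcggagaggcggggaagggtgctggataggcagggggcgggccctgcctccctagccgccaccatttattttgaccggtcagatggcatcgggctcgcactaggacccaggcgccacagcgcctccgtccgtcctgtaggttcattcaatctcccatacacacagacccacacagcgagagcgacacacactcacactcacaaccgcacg
Mxi1, window at the downstream start (chr19:53329163-53329462, plus strand, 1 match): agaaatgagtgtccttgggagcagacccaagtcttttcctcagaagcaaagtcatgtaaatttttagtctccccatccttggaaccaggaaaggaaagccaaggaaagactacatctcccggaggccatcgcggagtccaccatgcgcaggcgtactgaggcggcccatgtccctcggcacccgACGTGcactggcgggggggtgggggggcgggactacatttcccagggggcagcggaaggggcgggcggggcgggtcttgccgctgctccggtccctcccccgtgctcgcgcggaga
The 2 windows show the upstream start, whose transcript gained share, without the core, and the downstream start with 1 match. Absence of these letters from a window of this length says nothing about HIF acting from elsewhere.

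**Figure D3:**
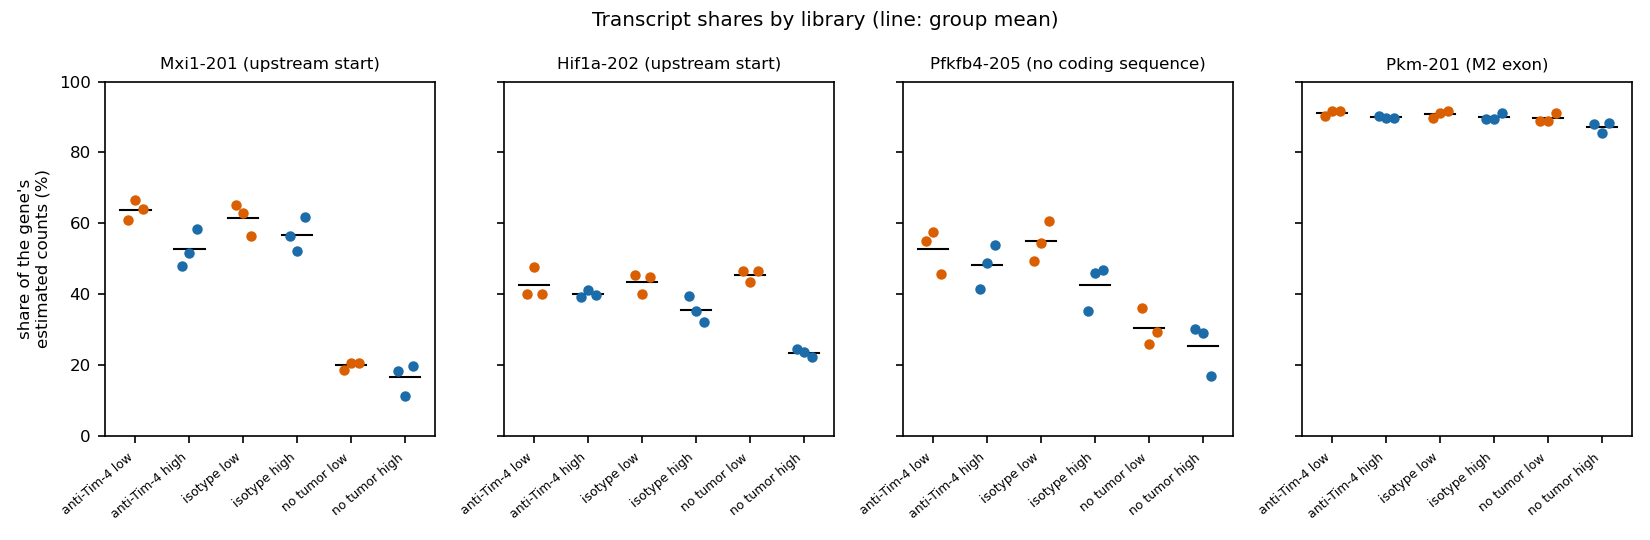
Share of a gene's estimated counts held by 1 transcript, in percent, 1 point per library and a line at the group mean, for the upstream Mxi1 and Hif1a transcripts, a noncoding Pfkfb4 transcript and the M2 transcript of Pkm in the 6 groups. The upstream Mxi1 transcript lies at 48.0% to 66.6% in tumor libraries and 11.4% to 20.8% in no-tumor libraries, while the Pkm transcript stays between 85.4% and 91.8%.

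Hif1a differed in its start between the populations with isotype and without a tumor. Hif1a-202, which begins at 12:73901375, upstream of Hif1a-201 at 73907904, encodes 810 residues, and Hif1a-201 encodes 836. Hif1a-202 took 42.7% ± 4.31 in Tim-4low and 40.1% ± 1.08 in Tim-4high cells with anti-Tim-4, which overlap, 43.5% ± 2.99 in Tim-4low and 35.7% ± 3.69 in Tim-4high cells with isotype and 45.6% ± 1.83 and 23.5% ± 1.05 without a tumor (SD, n = 3 each). In Tim-4high cells the tumor share was 12.2 percentage points above the no-tumor share without overlap (exact permutation p = 0.1), and in Tim-4low cells it differed by -2.10 points (exact permutation p = 0.5).
Pkm-201, with the exon of the M2 form at 9:59675568-59675734, held 90.9% ± 1.05 in Tim-4low and 90.0% ± 0.923 in Tim-4high isotype cells, against 89.6% ± 1.22 and 87.3% ± 1.64 without a tumor (SD, n = 3 each), so that M2 was the main form throughout. The exon of the M1 form, in Pkm-202 at 9:59675029-59675195, went with 5.82% and 6.91% in isotype and 6.22% and 8.12% in no-tumor cells. Pfkfb4 had a transcript with no coding sequence (ENSMUST00000198763), singled out after its values were seen, which took 55.0% in Tim-4low and 42.8% in Tim-4high isotype cells and 30.6% and 25.4% without a tumor, so the Pfkfb4 level counts transcripts that make no enzyme. Its protein-coding transcripts alone summed to 24.4, 26.2 and 20.3 CPM with isotype against 21.9, 22.7 and 22.6 CPM without a tumor in Tim-4low cells, which overlap, and to 13.4, 13.8 and 13.4 CPM against 10.4, 10.3 and 12.4 CPM in Tim-4high cells, which do not. The main transcripts of Vegfa and Hk1 overlapped between the groups in every comparison run.

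Between the sorted populations, the set split by gene and not as a whole. Without a tumor, 10 genes were higher and 8 lower in Tim-4low than in Tim-4high cells, 18 of 35 where 24.6% of all tested genes were called, 12.8% higher and 11.8% lower. With isotype 12 were higher and 8 lower, where 24.1% of all tested genes were called, 11.3% higher and 12.9% lower. The median difference was 0.13 without a tumor and 0.07 with isotype, against 0.02 and 0.01 over all tested genes. These 2 comparisons share no library, and 6 genes (Hif1a, Higd1a, Pfkfb4, Pfkp, Pgk1 and Tpi1) were higher and 5 (Egln3, Epas1, Hk1, P4ha2 and Pfkl) lower in Tim-4low cells in both, with no gene called in opposite directions. The share of all tested genes called alike in both was not counted. Higd1a, Pgk1, Egln3, Hk1 and P4ha2 lost the call with isotype when certain single libraries were left out, with adjusted p up to 0.137, and Hk1 without a tumor was lost without Tim-4low library 3 (adjusted p 0.0604).

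**Figure D4:**
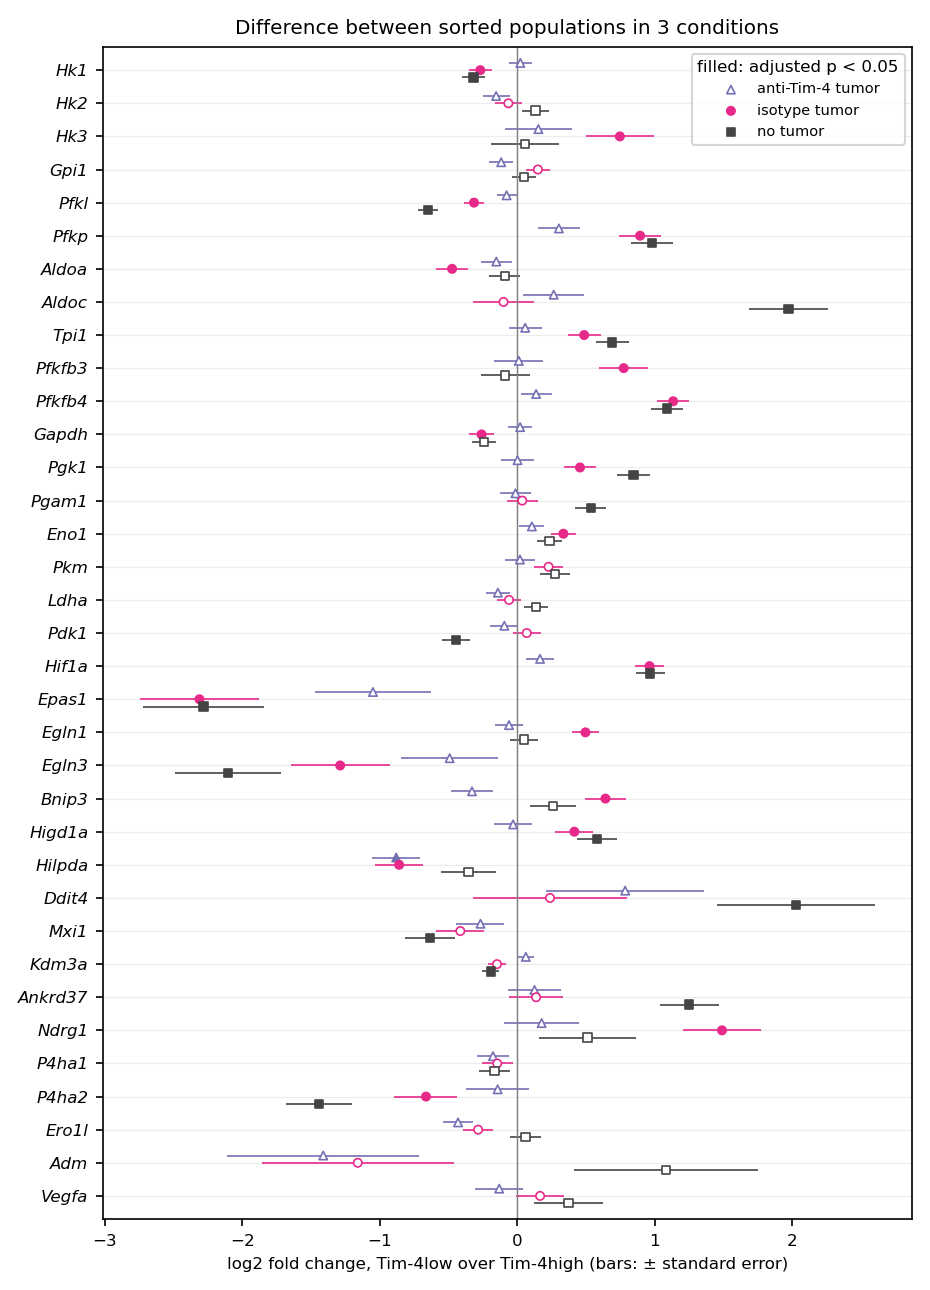
Each point is the log2 fold change of 1 gene, Tim-4low over Tim-4high, in anti-Tim-4 (triangles), isotype (circles) and no-tumor (squares) mice, with bars of ± 1 standard error and filled symbols at an adjusted p under 0.05. Epas1 lies at -1.05, -2.31 and -2.28, Hif1a at 0.17, 0.96 and 0.97, and Hilpda is the filled triangle at -0.88.

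Epas1 had the largest differences between populations, -2.31 ± 0.43 with isotype (adjusted p 0.0014) and -2.28 ± 0.44 without a tumor (adjusted p 0.0014). Egln3 was lower in Tim-4low cells as well, at -1.29 ± 0.36 with isotype, where it was lost without Tim-4low library 1 (adjusted p 0.0682) or 2 (adjusted p 0.0628), and -2.11 ± 0.39 without a tumor. Hif1a went the other way, at 0.96 ± 0.10 and 0.97 ± 0.10, so the genes of the 2 HIF alpha subunits were high in opposite populations. Pfkfb4 was higher in Tim-4low cells by 1.13 ± 0.11 and 1.09 ± 0.12. Markers of large peritoneal macrophages, 8 genes that include Timd4, summed with isotype to 1627 to 4535 CPM in the Tim-4low population and 10719.7 to 14537 CPM in the Tim-4high one, and without a tumor to 4786 to 6127 and 15815 to 21903 CPM, and their part in these differences was not tested.

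Some differences were called in 1 condition by the fit without a block. Without a tumor, Aldoc was higher in Tim-4low cells by 1.97 ± 0.29, Ankrd37 by 1.25 ± 0.22 and Ddit4 by 2.03 ± 0.58, the last lost without Tim-4high library 2 (adjusted p 0.061) or 3 (adjusted p 0.0662). Of these, the change of the difference with the tumor was called for Aldoc and for Ankrd37 (-1.11 ± 0.29, adjusted p 0.0474), the 2 genes called of 35 where 3.53% of all tested genes were, 1.32% positive and 2.21% negative, and it was not called for Ddit4 (-1.79 ± 0.80, adjusted p 0.273). By edgeR without a block, no gene had a larger rise in Tim-4low cells. In that fit 6 had one at an unadjusted p under 0.05, and DESeq2 called 3. With isotype, Ndrg1 was higher in Tim-4low cells by 1.49 ± 0.28, Bnip3 by 0.64 ± 0.15 and Pfkfb3 by 0.77 ± 0.18. Hilpda was lower with isotype by -0.86 ± 0.17, but it was also called lower after anti-Tim-4, as given below. With the library number as a block Bnip3 was also called without a tumor, at 0.26 (adjusted p 0.0277).

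Library numbers paired the 2 populations of a condition, as described under processing, and a fit with that number as a block called more. The tumor by population term then held for 17 of 35 genes, 9 higher and 8 lower in Tim-4low cells, where the same fit called 11.2% of all tested genes, 4.61% higher and 6.58% lower. Among them were Pfkfb3 at 0.84 (adjusted p 0.000689), P4ha2 at 0.76 (adjusted p 0.000825), Ndrg1 at 1.02 (adjusted p 0.0130) and Ddit4 at -1.86 (adjusted p 0.0170).

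In the authors' deposited table for mice without a tumor, with the sign turned to Tim-4low over Tim-4high, 10 genes were higher and 5 lower at an FDR under 0.05. The share of all genes called in that table was not counted. Its signed linear folds in the authors' deposited table were -4.87 for Epas1, -4.28 for Egln3, 1.95 for Hif1a and 2.12 for Pfkfb4.

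After anti-Tim-4 few differences between the populations were called. In the set Hilpda alone passed, lower in Tim-4low cells by -0.88 ± 0.17 (adjusted p 0.0223), 1 of 35 genes where 1.39% of all tested genes were called, 0.542% higher and 0.849% lower, and it was lost without Tim-4low library 2 (adjusted p 0.060), Tim-4high library 1 (adjusted p 0.0867) or Tim-4high library 2 (adjusted p 0.120). No gene was higher in Tim-4low cells in this fit, at an unadjusted p under 0.05 or by DESeq2, which called 2 lower. With the library number as a block 8 genes were called, 1 higher and 7 lower in Tim-4low cells, where that fit called 7.12% of all tested genes, 3.14% higher and 3.97% lower. The lower ones included Epas1 at -1.10 (adjusted p 0.0100), Ero1l at -0.43 (adjusted p 0.00230) and Egln3 at -0.51 (adjusted p 0.0390). Timd4 still separated the anti-Tim-4 populations, while their large peritoneal macrophage markers overlapped at 2192 to 8210.3 CPM for the Tim-4low and 3119 to 6815 CPM for the Tim-4high population.

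Part of the set was called between anti-Tim-4 and isotype in Tim-4high cells. There 5 genes rose and 1 fell against isotype, where 7.97% of all tested genes were called, 4.3% rising and 3.67% falling, and the median of the set was 0.08 against -0.0045 over all tested genes. Pfkfb3 rose by 0.83 ± 0.18 (adjusted p 0.0171), Bnip3 by 0.68 ± 0.15 (adjusted p 0.0187), Pfkfb4 by 0.64 ± 0.11 (adjusted p 0.00924), Hif1a by 0.39 ± 0.10 (adjusted p 0.0346) and Egln1 by 0.36 ± 0.10 (adjusted p 0.038). Hilpda fell, at -0.66 ± 0.17 (adjusted p 0.0319). The libraries of the 2 antibodies did not overlap for any of these 6, and over the set they did not overlap for 22 genes, against 39.2% of all tested genes. None of the 6 was called without anti-Tim-4 library 3 or without isotype library 1, and 1 was called without anti-Tim-4 library 2 or isotype library 3, while Hilpda lost its call on leaving out any of the 6 libraries. The folds kept their direction in these fits, at 0.75 to 0.91 for Pfkfb3, 0.54 to 0.84 for Bnip3, 0.51 to 0.73 for Pfkfb4, 0.34 to 0.43 for Hif1a, 0.30 to 0.41 for Egln1 and -0.74 to -0.56 for Hilpda. None of the 16 genes for glycolytic enzymes, Ldha and Pdk1 was called, with folds between -0.42 for Aldoc and 0.35 for Hk3, although the libraries did not overlap for 11 of them. A fit of the compared groups alone called 9 of the 16, 5 higher (Hk2, Hk3, Pfkp, Tpi1 and Pdk1) and 4 lower (Hk1, Pfkl, Aldoa and Aldoc) with anti-Tim-4. Folds nearest 0 included those of Ldha (-0.01 ± 0.09), Pgam1 (0.04 ± 0.11) and Pkm (0.08 ± 0.11). The large peritoneal macrophage markers were lower with anti-Tim-4 in these cells, 3119 to 6815 against 10719.7 to 14537 CPM, and their part was not tested. In the authors' deposited table of the same comparison 12 genes were higher and 9 lower at an FDR under 0.05, 10 of them among those 16, with signed linear folds of 1.77 for Pfkfb3, 1.6 for Bnip3 and -1.58 for Hilpda. The share of all genes called in that table was not counted, so these counts cannot be set against it.

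In Tim-4low cells, edgeR called 0 of the 35 genes between anti-Tim-4 and isotype, where 0.325% of all tested genes were called, 0.223% higher and 0.102% lower. At an unadjusted p under 0.05 there were 5, with 1 higher and 4 lower, and DESeq2 called 4. Vegfa came nearest, at -0.72 ± 0.18 (adjusted p 0.105), with all anti-Tim-4 libraries below all isotype ones. Of the 133 tested genes that stood in only 1 of the other pathway lists, none was called in Tim-4low cells, where 19 were at an unadjusted p under 0.05. In Tim-4high cells 7 of them were higher and 11 lower with anti-Tim-4. Genes that stood in more than 1 list were left out of these counts. The fold of Vhl, which targets HIF alpha for destruction, was 1.10 in Tim-4high cells.

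The fold of anti-Tim-4 over isotype differed between populations for 4 genes of the set. Among all tested genes 2.93% were called, 1.67% positive and 1.26% negative. The difference, Tim-4low minus Tim-4high, was -1.0 ± 0.16 for Pfkfb4 (adjusted p 0.0207), -0.97 ± 0.21 for Bnip3 (adjusted p 0.0338), -0.80 ± 0.15 for Hif1a (adjusted p 0.0212) and -0.56 ± 0.14 for Egln1 (adjusted p 0.0462). In each, the level was higher with anti-Tim-4 than with isotype in Tim-4high cells and lower in Tim-4low cells, where the separate test was not passed. None of the 4 was called without Tim-4high anti-Tim-4 library 2 or 3, Tim-4low isotype library 2 or Tim-4high isotype library 1. In the fit without a block no gene differed the other way, where 5 did at an unadjusted p under 0.05 and 0 by DESeq2. The fit with the library number as a block called 17 genes, 5 higher and 12 lower, where it called 15.7% of all tested genes, 8.4% higher and 7.31% lower. It added Ndrg1 at -1.33 (adjusted p 0.000342), Pfkfb3 at -0.78 (adjusted p 0.000683) and Epas1 at 1.35 (adjusted p 0.00924).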

How the data were processed

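RNA of sorted Tim-4low and Tim-4high peritoneal macrophages was sequenced in 18 libraries, 6 groups of 3 by their labels, all used. Estimated counts of genes and of transcripts, not normalized, were deposited by the authors. Per the submitters' processing notes, STAR, DESeq2 and mm10 were used, with no versions stated. The quantifier and its settings, the annotation release and the handling of strand were not given in the sources used. The authors' deposited tables of 2 comparisons hold p-values and FDR values and a signed linear fold, recorded as a score, whose sign was turned here for the no-tumor comparison to Tim-4low over Tim-4high. Libraries of a group are called triplicates, with no word of separate animals, so a p-value reflects only how far these samples spread, which may be technical.

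All 23511 gene rows matched GENCODE M21 by symbol and start, and the file's stop was 1 base past the annotated end, which was removed. Counts were rounded and filterByExpr kept 16609 genes, with the 6902 others holding up to 0.0878% of the counts of a library. One model of the 6 groups was fitted with edgeR 4.0.16 (R 4.3.3, limma 3.58.1), TMM scaling and the quasi-likelihood test, and p-values were Benjamini-Hochberg adjusted over all tested genes. The fit had 12 residual degrees of freedom, and its common dispersion was 0.0323. TPM used M21 transcript lengths, and transcript shares were tested by an exact two-sided permutation of 3 against 3 libraries. The fits were tested on simulated data. Libraries of 1 group differed beyond counting noise (chi-square per degree of freedom 9.66 to 75.2), so none was a copy.

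The naming rule took all 35 members by role, with library values for the 8 called members of largest fold in the Tim-4high tumor comparison, the 4 of each other comparison, and the HIF, hydroxylase and hexokinase genes, Pkm, Ldha and Vegfa, and of each neighbouring pathway list counts and up to 4 called genes. The members and lists were chosen with earlier results of these data known.

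Pairing was checked on deviations from group means. Tim-4low and Tim-4high libraries with the same number in a condition correlated at 0.3076 to 0.5995 in all 9 pairs, and those with other numbers at -0.5561 to 0.2858, so the number was taken to pair them. Between conditions, libraries of equal number correlated at -0.4358 to 0.2909 and were not taken as pairs. Alternatives were RLE factors, no filter, robust estimation, DESeq2 1.42.0, the compared groups alone, blocks on library number, omission of each library and of both isotype libraries 3 or both no-tumor libraries 1, and, for transcripts, complete coding ones alone. The shares of Mxi1 and Pfkfb4 transcripts were added after seeing the data.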

Additional observations from a re-analysis of the deposited data

Results flagged for a closer look

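A difference between the populations under the same contrast was called for 6 results by the fit without a block. The tumor fold of Aldoc was smaller in Tim-4low than in Tim-4high cells by a difference of -2.07 (adjusted p 0.00519). The tumor fold of Ankrd37 differed in the same direction by -1.11 (adjusted p 0.0474). The fold of anti-Tim-4 over isotype was lower in Tim-4low than in Tim-4high cells for Pfkfb4, Hif1a, Egln1 and Bnip3. The difference was -1.0 for Pfkfb4 (adjusted p 0.0207), -0.80 for Hif1a (adjusted p 0.0212), -0.56 for Egln1 (adjusted p 0.0462) and -0.97 for Bnip3 (adjusted p 0.0338). Aldoc kept its call under all 20 alternatives, with an adjusted p of at most 0.0283, and Ankrd37 lost its call under 13 of 20, with an adjusted p of 0.00514 to 0.121. Pfkfb4 lost it under 5 of 19, Hif1a under 7, Bnip3 under 9 and Egln1 under 11.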

How the results depend on the processing

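No called gene of the set changed direction under any alternative. Calls held under every alternative for 30 of 31 genes with the tumor in Tim-4low cells (not Pfkfb3), 29 of 30 in Tim-4high cells (not P4ha2), 29 of 34 and 29 of 29 with anti-Tim-4 tumors, 12 of 20 between populations with isotype and 12 of 18 without a tumor. The counts below did not hold, and their cause was not tested beyond fewer samples or genes in the fit. Without the low-count filter, 34 genes were called for anti-Tim-4 in Tim-4low cells and 1 member for tumor by population. DESeq2 called 2 members and 528 genes between populations after anti-Tim-4, 2061 genes and, in Tim-4low cells, 4 members and 274 genes for the antibody, 6 members and 1000 genes for tumor by population and 1205 genes for antibody by population. Fits of the compared groups alone called 2385 genes between populations without a tumor and 430 after anti-Tim-4, 20 members (11 higher) and 2866 genes for anti-Tim-4 in Tim-4high cells, 3 genes in Tim-4low cells, 1 member for tumor by population, and 9 members and 944 genes for antibody by population. The replicate block within conditions called 8 members and 1182 genes after anti-Tim-4, 17 and 1858 for tumor by population, and 17 and 2609 for antibody by population. It changed calls beyond these by adding 5 members without a tumor and 3 with isotype. A block on numbers across conditions, which do not pair, ended the call of Adm (adjusted p 0.0704). Without both isotype libraries 3, 1 member and 215 genes remained called for anti-Tim-4 in Tim-4high cells, 6 genes in Tim-4low cells, 1 member and 262 genes for tumor by population and 0 members and 9 genes for antibody by population. Without both no-tumor libraries 1, 4 members and 913 genes were called for tumor by population. Leaving out 1 library gave 10 to 1196 genes and 0 to 5 members for anti-Tim-4 in Tim-4high cells, 2 to 64 genes in Tim-4low cells, 1 to 1430 genes and 0 to 6 members for antibody by population, 328 to 952 genes and 1 to 3 members for tumor by population, 26 to 139 genes and 0 to 1 members between populations after anti-Tim-4, and 2658 to 3514 genes and 13 to 17 members with isotype. Depth limits genes of low counts, such as Adm, Ddit4 and Aldoc without a tumor, and 3 libraries a group limit the interactions.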
